A study of Mus musculus with 23 samples.

Results

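The 4 arrays described here follow mouse epiblast-like cells with intact Wnt3 (Wnt3+/+, called WT) through 36 h of culture with the signalling protein WNT3A. They were chosen by title, as the 3 arrays titled Wnt3+/+ with Wnt3a at 12, 24 and 36 h plus the Wnt3+/+ array at 0 h that starts the course, and they are 4 of the 23 arrays of the series. Epiblast-like cells are made from embryonic stem cells with Activin A and bFGF and model the epiblast before gastrulation. All cells of the series came from male C57BL/6 embryonic stem cells that carry the BV transgenes, a membrane-bound Venus reporter under Blimp1 regulatory elements, in lines that are Wnt3+/+ or Wnt3-/- (called KO). From 0 h they were moved to floating aggregates in a serum replacement medium with LIF. WT aggregates received WNT3A at 50 ng/ml, BMP4 at 500 ng/ml or no added cytokine, and KO aggregates received the same or BMP4 and WNT3A together. Each genotype, condition and time has 1 array and there are no replicates. Each genotype is a single line as far as the labels say, and differences between lines cannot be told apart from those of genotype. Any step between 0 and 12 h also contains the change of medium and the move to aggregates.

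WNT3A is a secreted ligand that stabilises beta-catenin, which enters the nucleus and joins TCF and LEF factors at their target genes. Feedback genes such as Axin2 and transcription factors such as Sp5 are among the best known direct targets. In the embryo, WNT signalling is needed to form the primitive streak, from which mesoderm and definitive endoderm emerge, and it later drives caudal and Hox genes in the posterior epiblast. Cells that leave the epiblast state lose its factors, among them Otx2, Foxd3 and Pou3f1.

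The deposited values are intensities on a linear scale, 1 for each probe set of a whole-genome mouse Affymetrix array, with a floor at 1. Intensities below are as deposited. Differences are on the quantile-normalized log2(intensity + 16) scale, which understates the change of dim genes, and a fold is 2 raised to such a difference. The array of WT cells with WNT3A at 24 h stands apart in RNA quality. Its Gapdh ratio of 3' to 5' probe sets was 4.03, the highest of the 23 arrays, against 1.53 to 1.71 on the other 3 arrays of the course, while its Actb ratio of 7.21 lay within the 6.45 to 8.17 of those 3. The array medians of the course ranged from 38.1 to 40.8 and the upper quartiles from 229 to 284. The array of WT cells without cytokine at 36 h, at 2.30, is also among the 3 of highest ratio. The counts of the tests and classes are therefore also given without the WNT3A 24 h array, whereas levels, shares and 4-fold counts at 24 h rest on that array alone. Among 13256 genes kept, the p-values come from limma with a straight course over time for each condition, and they measure how unsteady a gene was around those courses within 1 series of cultures. The fitted 12 h level can differ from the measured one, and the single 0 h array is assumed to vary like the others.

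The number of genes at least 4-fold away from 0 h grew at each time, and higher genes outnumbered lower ones throughout. At 12 h 49 genes were at least 4-fold higher (0.370% of genes) and 9 lower (0.0679%). At 24 h 140 were higher (1.06%) and 47 lower (0.355%), and at 36 h 323 were higher (2.44%) and 127 lower (0.958%). In WT cells without cytokine the counts of higher genes at the same 3 times were 7, 43 and 130 (0.0528%, 0.324% and 0.981%), and the counts of lower genes were 5, 39 and 86 (0.0377%, 0.294% and 0.649%). In limma, 514 genes changed between 0 and 12 h (3.88% of genes), of which 345 rose (2.60%) and 169 fell (1.27%). Between 12 and 36 h 1345 genes changed (10.1%), 748 upwards (5.64%) and 597 downwards (4.50%). Without the WNT3A 24 h array the counts were 446 and 1425, without the WNT3A 12 h array 79 and 215, and without the WNT3A 36 h array 447 and 59. WT arrays alone gave 95 and 742, and 311 genes changed between 0 and 12 h when the 6 KO arrays with conflicting labels, described below, were left out. Counts of list members that rose or fell can be read against the shares just given for all genes.

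The genes were sorted into classes by the time at which they first stood 4-fold away from 0 h, as a description with no test. Early genes were past the limit at 12 and 36 h, middle genes first at 24 h and again at 36 h, late genes only at 36 h, and transient genes at 12 or 24 h but not at 36 h. On the higher side 40 genes were early (0.302%), 80 middle (0.604%), 203 late (1.53%) and 24 transient (0.181%). On the lower side the classes held 8 (0.0604%), 29 (0.219%), 90 (0.679%) and 11 genes (0.0830%). Early risen genes had covered a median of 77.8% of their 36 h log2 difference by 12 h and 97.7% by 24 h. The middle class had covered 33.6% and 75.5%, and the late class 14.2% and 40.5%. Many members lay close to the limit. Within 0.25 log2 of it at 1 or more of the times were 10 of the 40 early and 36 of the 80 middle risen genes. The same held for 82 of the 203 late and 18 of the 24 transient risen genes. On the lower side it held for 3 of 8 early, 7 of 29 middle, 51 of 90 late and 9 of 11 transient genes. Without the 24 h array the middle class cannot be defined, its genes count as late, which makes 283, and 9 transient genes remain. The early class does not use that array, so its 40 genes keep their class by definition, which is no check of it.

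**Figure D1:**
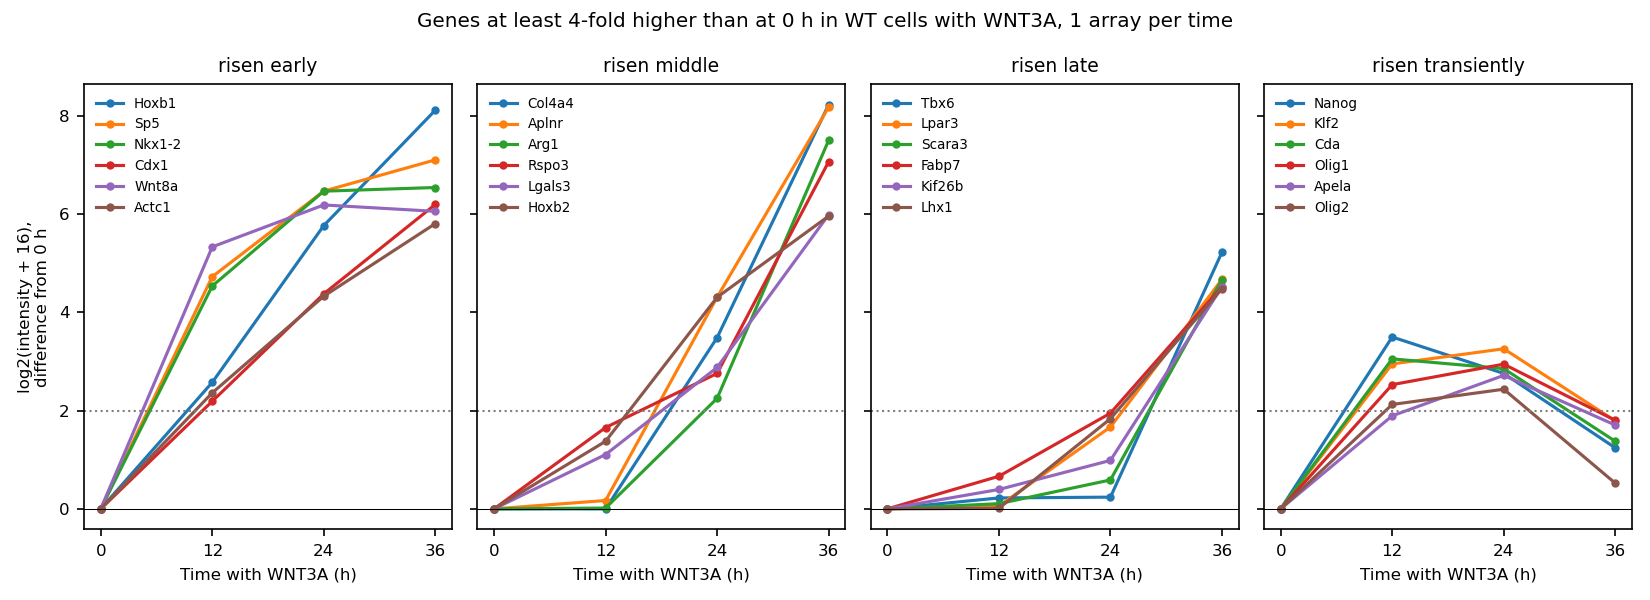
The log2 difference from 0 h (y axis, log2(intensity + 16)) against hours with WNT3A (x axis) for the 6 genes with the largest differences in each risen class, 1 array per point, with the 4-fold limit dotted. Wnt8a stands at 5.33 by 12 h, Aplnr at 0.17 at 12 h and 8.17 at 36 h, Tbx6 at 0.24 at 24 h and 5.22 at 36 h, and Nanog at 3.50 at 12 h and 1.24 at 36 h.

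Sp5, Axin2 and Tnfrsf19 were the 3 early risen genes among the 14 kept genes of the WNT response list, of which 1 was middle, 1 late and 9 in no class. Sp5, a zinc finger transcription factor and direct target of beta-catenin, had an intensity of 26.4 at 0 h, 1098 at 12 h, 3641 at 24 h and 5914 at 36 h. Axin2, the scaffold that feeds back on beta-catenin, had 67.7, 523, 1370 and 949 at the same times. Tnfrsf19, a receptor of the tumour necrosis factor family that WNT signalling induces, had 50.6, 734, 1409 and 2034. All 3 genes were far above their 0 h level at 12 h, after which Sp5 and Tnfrsf19 went on climbing and Axin2 was highest at 24 h. Between 0 and 12 h Sp5 rose by 4.98 ± 0.50 log2 (SE of the model, adjusted p = 0.000314), Axin2 by 2.97 ± 0.45 (adjusted p = 0.00432) and Tnfrsf19 by 3.56 ± 0.32 (adjusted p = 0.000134). Between 12 and 36 h Sp5 rose by a further 2.38 ± 0.52 (adjusted p = 0.0123), while the change of Axin2 was 0.73 ± 0.47 (adjusted p = 0.389). A dimmer probe set of Axin2 stood only 0.45 log2 above 0 h at 12 h, and a second one of Tnfrsf19 0.77.

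Beta-catenin acts through TCF and LEF factors, whose core motif can be searched for in promoters. Printed here are the early risen genes with a match, which are Sp5, Tnfrsf19 and Foxa2, an early gene described below. Axin2 was added whether or not it had a match. The matches among the printed promoters therefore follow from this choice. Each is the RefSeq window of GRCm38.p6 from 250 bases before to 50 bases after the annotated start, on the strand of the gene, and capitals mark a match to CTTTGAA or CTTTGAT or to their reverse complements TTCAAAG and ATCAAAG. For Foxa2 and Tnfrsf19 the window with the match is shown. The Sp5 window is chr2:70474673-70474972 on the plus strand, with the first base of the match at -104 from the start. The Foxa2 window is chr2:148045415-148045714 on the minus strand, with the match at 15 after the start. The Tnfrsf19 window is chr14:61037938-61038237 on the minus strand, with the match at -202, and the Axin2 window, chr11:108920099-108920398 on the plus strand, holds no match.
Sp5: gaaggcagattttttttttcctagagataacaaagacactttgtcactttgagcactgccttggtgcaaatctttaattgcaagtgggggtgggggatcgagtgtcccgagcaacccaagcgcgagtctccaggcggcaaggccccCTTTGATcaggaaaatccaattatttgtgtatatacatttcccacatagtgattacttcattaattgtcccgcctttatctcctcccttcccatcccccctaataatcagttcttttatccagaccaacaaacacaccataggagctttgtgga
Foxa2: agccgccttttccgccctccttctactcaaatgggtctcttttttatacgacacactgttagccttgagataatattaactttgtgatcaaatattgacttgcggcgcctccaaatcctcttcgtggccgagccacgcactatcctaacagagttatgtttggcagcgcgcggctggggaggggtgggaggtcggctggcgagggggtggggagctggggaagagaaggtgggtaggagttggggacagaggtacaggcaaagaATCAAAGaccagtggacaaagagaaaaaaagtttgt
Tnfrsf19: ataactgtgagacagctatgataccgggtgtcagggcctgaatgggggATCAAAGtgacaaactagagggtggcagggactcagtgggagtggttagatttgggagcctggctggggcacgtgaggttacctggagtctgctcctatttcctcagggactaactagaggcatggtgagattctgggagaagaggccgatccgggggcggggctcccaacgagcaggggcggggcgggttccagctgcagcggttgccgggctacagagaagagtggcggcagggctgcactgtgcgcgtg
Axin2: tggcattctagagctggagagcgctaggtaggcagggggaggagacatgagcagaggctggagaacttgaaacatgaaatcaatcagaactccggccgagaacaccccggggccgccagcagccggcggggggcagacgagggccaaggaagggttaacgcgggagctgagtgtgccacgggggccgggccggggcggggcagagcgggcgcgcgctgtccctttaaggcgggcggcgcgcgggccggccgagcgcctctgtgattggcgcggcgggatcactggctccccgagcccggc
A match is only a description of the letters. Such a match occurred in 8.65% of 32851 promoter windows of the table and in 6.09% of those of the genes kept. By gene it was present in 7.30% of the kept genes with a window, in 3 of 28 early risen genes, 10 of 59 middle genes and 13 of 162 late genes. The 3 early genes are Sp5, Foxa2 and Tnfrsf19, which were printed above because they hold a match.

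Genes of WNT ligands came at different times. Wnt8a, a ligand of the primitive streak, had 30.9 at 0 h, 1872 at 12 h, 3373 at 24 h and 3214 at 36 h, so it had reached most of its level by 12 h. It rose by 5.41 ± 0.25 log2 between 0 and 12 h (adjusted p = 8.08e-07), and its later change was 0.72 ± 0.26 (adjusted p = 0.103). Wnt5b, a ligand mostly of beta-catenin-independent signalling, stood at 162, 653, 1380 and 3848 and rose over both intervals, by 1.83 ± 0.27 (adjusted p = 0.0038) and 2.49 ± 0.28 (adjusted p = 0.000359). Wnt3a itself had 142, 132, 271 and 1663, and Wnt5a 9.99, 19.4, 23.8 and 402. These late ligands were near their 0 h level at 12 h and clearly above it only at 36 h. From 12 to 36 h Wnt3a rose by 3.40 ± 0.47 (adjusted p = 0.000953) and Wnt5a by 3.41 ± 0.59 (adjusted p = 0.00357). The dimmer probe sets of Wnt5a stood at 0.51, 0.86 and -0.22 log2 from 0 h at 36 h, against 3.85 for the one used. Wnt3, the gene deleted in the KO line, had 10.4, 32.7, 56.9 and 25.6 and passed neither test. Of the 10 WNT ligand genes kept, 2 rose between 0 and 12 h and 4 between 12 and 36 h, and the median differences were 0.21 and 0.37, against 0.00 and -0.04 over all genes. Of 14 kept genes on the list of WNT response genes, 4 rose between 0 and 12 h, namely Sp5, Axin2, Tnfrsf19 and Sp8. The list median was 0.18. Lef1, Nkd1, Notum, Rnf43 and Ccnd1 were among the 10 members that passed no test in that interval, although a dimmer probe set of Nkd1 stood 3.18 log2 above 0 h at 36 h, and Dkk1, a secreted WNT antagonist, was late, with 47.5, 61.0, 155 and 1193.

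Nkx1-2, Fgf8 and Gbx2 were early genes of the caudal epiblast and streak, whose lists were spread over the classes. Of 6 kept caudal epiblast genes 2 were early, 2 middle and 2 late, and of 15 streak genes 2 were early, 5 middle and 2 late. Nkx1-2, a homeobox gene of the caudal epiblast, had 44.3 at 0 h, 1389 at 12 h, 5257 at 24 h and 5793 at 36 h. Fgf8, a growth factor of the streak, had 22.6, 572, 568 and 704, and Gbx2, a homeobox gene of the posterior epiblast, had 72.5, 568, 1152 and 1795. Fgf8 was thus at a plateau from 12 h, whereas Nkx1-2 and Gbx2 kept climbing. The second brightest probe set of Nkx1-2 stood 2.36, 2.93 and 3.33 log2 above 0 h, and the dimmest 0.24, 0.12 and 0.10. Between 0 and 12 h the increases were 4.73 ± 0.33 for Nkx1-2 (adjusted p = 1.59e-05), 3.88 ± 0.43 for Fgf8 (adjusted p = 0.000625) and 2.85 ± 0.39 for Gbx2 (adjusted p = 0.0025). Among the 5 largest increases of that interval were also Frem2, an extracellular matrix gene, with 32.9, 955, 1574 and 1898, and Rtl8c, a gene derived from a retrotransposon, with 32.4, 719, 2077 and 2759. All 6 kept members of the caudal epiblast list rose between 12 and 36 h (median 1.86), and 4 of them had risen already between 0 and 12 h (median 1.39).

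Foxa2 and Hoxb1 were early and Cdx2 late. Foxa2, a forkhead factor of definitive endoderm and axial mesoderm, had 18.9 at 0 h, 357 at 12 h, 1499 at 24 h and 1520 at 36 h. Hoxb1, the most anterior gene of the HoxB cluster to be active in the posterior epiblast, had 9.06, 133, 1361 and 7132. Cdx2, a caudal homeobox gene, had 10.7, 6.19, 39.7 and 484. Foxa2 levelled off after 24 h, Hoxb1 climbed to the last time, and Cdx2 was near background until 24 h. Between 0 and 12 h Foxa2 rose by 3.69 ± 0.52 (adjusted p = 0.00306) and Hoxb1 by 2.94 ± 0.72 (adjusted p = 0.0433). Between 12 and 36 h Hoxb1 rose by 5.54 ± 0.75 (adjusted p = 0.000883), Cdx2 by 4.35 ± 0.59 (adjusted p = 0.000883) and Foxa2 by 1.94 ± 0.54 (adjusted p = 0.0425).

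The caudal and Hox genes passed the 4-fold limit at different times. Cdx1 was early, with 20.5, 150, 744 and 2778 at 0, 12, 24 and 36 h. Hoxb2, with 20.8, 79.3, 714 and 2385, and Hoxa2, with 10.5, 34.3, 126 and 272, were in the middle class. Cdx4, with 8.52, 5.21, 22.8 and 111, and Hoxb3, with 1.87, 9.0, 19.8 and 189, were late like Cdx2. Within the HoxB genes measured, Hoxb1 passed the limit at 12 h, Hoxb2 at 24 h and Hoxb3 at 36 h, while Hoxb4 had 41.4, 44.0, 32.4 and 33.4 and passed it at no time. Of 10 kept genes of this list, 8 rose between 12 and 36 h, with a list median of 2.71. The list holds further Hox genes that were too dim to be kept or have no probe set of their own and are not analysed here.

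**Figure D2:**
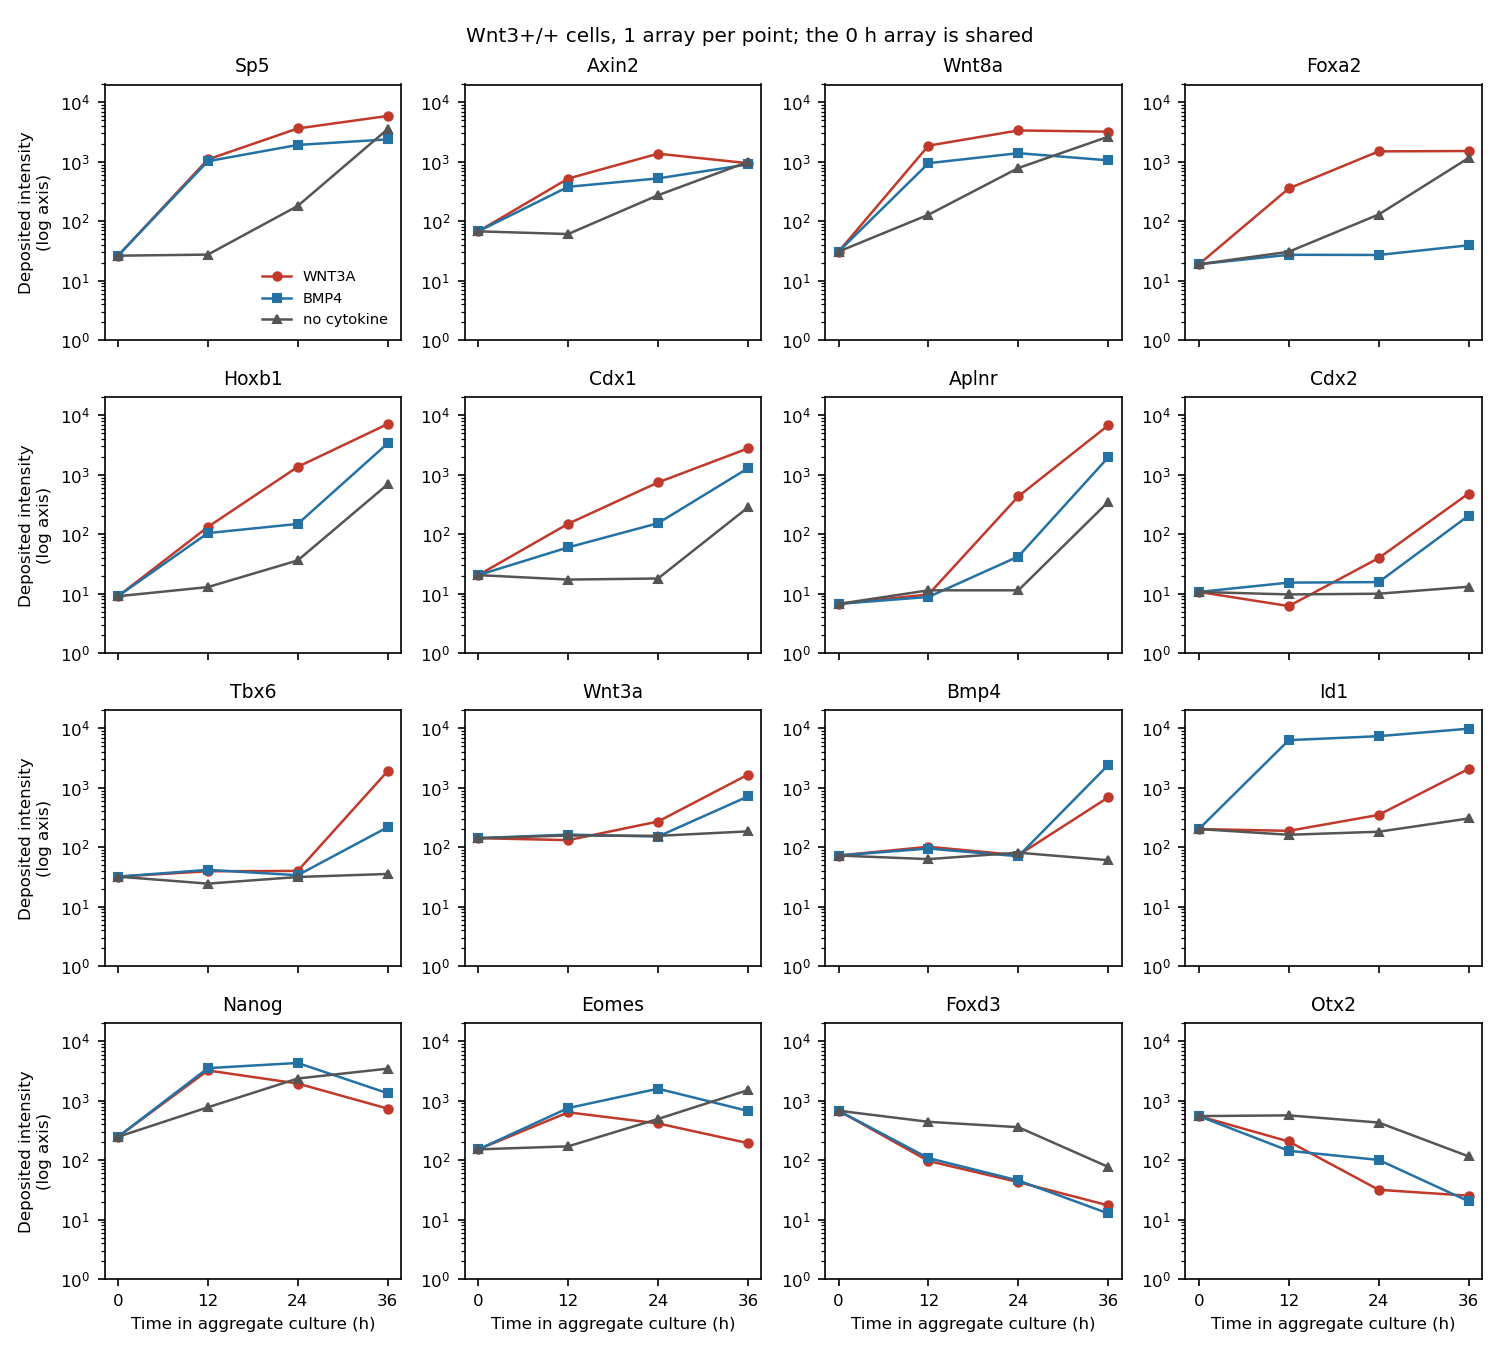
Deposited intensity on a log axis (y) against hours of aggregate culture (x) for 16 genes in WT cells with WNT3A, with BMP4 and without cytokine, 1 array per point and 1 shared 0 h array. Sp5, Axin2 and Wnt8a were high at 12 h with WNT3A (1098, 523 and 1872) and stood at 27.5, 61.0 and 129 without cytokine, whereas Tbx6, Cdx2 and Wnt3a were high at 36 h with WNT3A (1898, 484 and 1663) and stayed at 35.5, 13.1 and 185 without cytokine.

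Aplnr, Arg1, Rspo3 and Col4a4 were middle genes with large differences at 36 h. They were at or near background at 0 h, so the size of their differences depends on the offset of 16. Aplnr, the receptor of apelin and a gene of nascent mesoderm, had 6.73 at 0 h, 9.71 at 12 h, 434 at 24 h and 6794 at 36 h. Arg1, which encodes the enzyme arginase 1, had 3.29, 3.63, 74.5 and 3591, and Rspo3, a secreted protein that strengthens WNT signalling, had 5.86, 52.3, 130 and 3019. Col4a4, a basement membrane collagen, was listed at the floor of 1 at 0 and 12 h and had 171 and 5185 at 24 and 36 h. Each of the 4 genes was dim at 12 h, visible at 24 h and bright at 36 h. From 12 to 36 h Col4a4 rose by 8.22 ± 1.07 log2 (adjusted p = 0.000719), Aplnr by 8.0 ± 0.77 (adjusted p = 0.000132), Arg1 by 7.48 ± 0.96 (adjusted p = 0.000674) and Rspo3 by 5.41 ± 0.79 (adjusted p = 0.00129). The course of Col4a4 rests on 1 of its 3 probe sets, since the other 2 stood 0.48 and 0.22 log2 above 0 h at 36 h, and the second Rspo3 probe set stood at 0.72. Both probe sets of Aplnr moved, to 8.17 and 6.32 at 36 h. Apln, the ligand of Aplnr, preceded its receptor with 61.8, 383, 2226 and 1924, but passed neither test (0 to 12 h difference 2.60 ± 0.91, adjusted p = 0.159).

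Chrd, Foxj1 and Krt19 were the 3 middle genes among the 12 kept genes of the endoderm and axial mesoderm list, of which 2 were early, 1 late and 6 in no class. Chrd, a BMP antagonist of the node and axial mesoderm, had 55.0, 98.4, 695 and 1531 at 0, 12, 24 and 36 h. Foxj1, the master factor of motile cilia, which the node carries, had 6.36, 12.8, 82.7 and 541. Krt19, an epithelial keratin, had 31.1, 51.3, 644 and 1938. These genes rose between 12 and 36 h, by 3.65 ± 0.45 (adjusted p = 0.000516), 4.13 ± 0.43 (adjusted p = 0.000256) and 4.76 ± 0.51 (adjusted p = 0.000275). Of 12 kept genes of the endoderm and axial mesoderm list 5 rose in that interval (median 0.56), Foxa1, Foxa2, Chrd, Foxj1 and Krt19. Sox17 and Hhex, factors of definitive endoderm, had 83.9, 71.5, 56.5 and 121, and 73.5, 105, 87.4 and 171, and passed no test.

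Streak and mesoderm genes divided over the course. Evx1, a homeobox gene of the streak, was in the middle class with 22.0, 72.5, 229 and 1418 and rose from 12 to 36 h by 3.90 ± 0.51 (adjusted p = 0.000749). Mixl1, a homeobox gene of mesendoderm, had 11.4, 34.8, 362 and 413, and its difference of 2.92 ± 0.89 did not pass (adjusted p = 0.0591). Lhx1, a factor of axial and intermediate mesoderm, had 5.13, 5.5, 58.1 and 508, late by class, and rose by 4.47 ± 0.49 (adjusted p = 0.000298). A dimmer probe set of Lhx1 stood 1.10 log2 above 0 h at 36 h, against 4.48 for the one used. Of the 15 genes on the streak list, all kept, 1 rose between 0 and 12 h, Fgf8, 1 fell, Fgf4, and 4 rose between 12 and 36 h, Evx1, Lhx1, Frzb and Aplnr. The list medians were 1.13 and 1.55.

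Tbx6 had the largest 36 h difference of the late class, 5.22, followed by Lpar3 at 4.67, Scara3 at 4.66, Fabp7 and Kif26b at 4.52 and Lhx1 at 4.48. Tbx6 is a gene of the presomitic mesoderm, the tissue that forms the somites, and 4 of the 13 kept genes of the presomitic and Notch list were late, 1 was middle and 8 were in no class. Tbx6, the T-box factor that directs cells to it, had 32.0 at 0 h, 39.4 at 12 h, 40.0 at 24 h and 1898 at 36 h. Dll1, a Notch ligand, had 258, 218, 163 and 3327, and its receptor Notch1 had 134, 142, 286 and 1209. Cited1, a transcriptional cofactor, had 69.1, 64, 89.9 and 1278, and Aldh1a2, which makes retinoic acid, had 52.3, 45.6, 57.3 and 803. Tbx6, Dll1, Cited1 and Aldh1a2 were within 1 log2 of 0 h at 12 and 24 h and appeared between 24 and 36 h. The 12 to 36 h increases were 5.0 ± 0.82 for Tbx6 (adjusted p = 0.00251), 3.76 ± 0.76 for Dll1 (adjusted p = 0.00877) and 2.83 ± 0.46 for Notch1 (adjusted p = 0.00251). Of 13 kept genes of the presomitic and Notch list 6 rose (median 1.57). Msgn1, another factor of that tissue, had 25.1, 31.6, 33.4 and 137 and did not pass.

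Some BMP pathway genes changed late in these cultures, to which no BMP was added. Bmp4 had 72.5, 102, 73.5 and 690 at 0, 12, 24 and 36 h, a 7.12-fold difference at 36 h that did not pass the test (2.43 ± 0.89, adjusted p = 0.115). Id1, a general target of BMP and SMAD signalling, had 202, 189, 350 and 2077. Msx1, a homeobox target of BMP, had 52.7, 71.5, 73.0 and 502. Id1 rose by 3.26 ± 0.36 from 12 to 36 h (adjusted p = 0.000328) and Msx1 by 2.40 ± 0.44 (adjusted p = 0.00448). Smad7, an inhibitor of the pathway, fell by 2.33 ± 0.42 (adjusted p = 0.00447), with 296, 276, 315 and 44.6. These were 3 of the 9 kept BMP response genes, whose median was -0.22, and Id2, Id3, Smad6, Msx2 and Bambi did not pass.

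Genes of the epithelial to mesenchymal transition moved in part. Cdh2, which encodes N-cadherin, had 81.6, 131, 286 and 1898, and Vim, the intermediate filament vimentin, had 1152, 2210, 5442 and 9281. Between 12 and 36 h Cdh2 rose by 3.60 ± 0.56 (adjusted p = 0.0018) and Vim by 2.01 ± 0.34 (adjusted p = 0.0029). Cdh1, which encodes the epithelial E-cadherin, had 7281, 6841, 6339 and 6383 and did not pass. Of 14 kept genes of this list, 4 rose (Cdh2, Cdh11, Zeb2 and Vim) and 3 fell (Epcam, Cldn6 and Cldn7), with a median of 0.18.

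The 24 transient risen genes were past the limit at 12 or 24 h and below it at 36 h. Most were borderline, as 18 lay within 0.25 log2 of the limit at 1 or more of the times. The class median was 2.23 at 24 h and still 1.43 at 36 h. By the test 6 of the 24 fell between 12 and 36 h, where 4.50% of all genes did. Nanog, a core factor of naive pluripotency that is also active in the posterior epiblast, had 247 at 0 h, 3236 at 12 h, 1951 at 24 h and 739 at 36 h. Klf2, another naive factor, had 61.8, 596, 734 and 286. Olig2, a helix-loop-helix factor, had 347, 1771, 2180 and 630, and its neighbour Olig1 had 568, 3692, 4871 and 2353. Nanog was highest at 12 h and the other 3 at 24 h. Nanog rose by 3.50 ± 0.38 from 0 to 12 h (adjusted p = 0.000562) and fell by 2.25 ± 0.39 from 12 to 36 h (adjusted p = 0.00368), and Olig2 rose by 2.35 ± 0.44 (adjusted p = 0.0135) and then fell by 1.60 ± 0.46 (adjusted p = 0.0474). For Klf2 the rise of 3.30 ± 0.59 passed (adjusted p = 0.00997) and the later difference of -1.16 ± 0.61 did not (adjusted p = 0.279). Of the 24 transient genes 9 were past the limit at 12 h, and 15 only on the 24 h array.

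Eomes, the T-box factor of the anterior streak and definitive endoderm, had 152, 639, 416 and 194, highest at 12 h and below the 4-fold limit. A second probe set of Eomes of similar brightness stood 3.53, 3.60 and 0.36 log2 above 0 h, past the limit at 12 and 24 h. On the probe set used, the difference from 0 to 12 h was 1.87 ± 0.58 (adjusted p = 0.105) and the later one -1.77 ± 0.60 (adjusted p = 0.0856), so neither passed. Lefty1, a feedback inhibitor of Nodal, had 3169, 8964, 6608 and 3692. It rose by 1.51 ± 0.33 (adjusted p = 0.0254) and then fell by 1.31 ± 0.34 (adjusted p = 0.0298). Nodal itself had 1031, 1489, 1448 and 1136, with no difference that passed.

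Foxd3, Slc35d3 and Fgf4 were among the 8 genes of the early fallen class. The fallen classes can also be followed without cytokine. Of the 8 early fallen genes 2, 5 and 8 were past 4-fold from 0 h there at 12, 24 and 36 h, and of the 29 middle fallen genes 1, 14 and 26. Over all genes 0.0377%, 0.294% and 0.649% were, and the 0 h array is the one that sorted the classes. At least 4-fold below the cells without cytokine were 4, 3 and 0 of the early, 0, 2 and 0 of the middle and 0, 0 and 11 of the 90 late fallen genes. Over all genes 0.0377%, 0.0905% and 0.143% were. Foxd3, a forkhead factor of the epiblast, had 680 at 0 h, 97.0 at 12 h, 42.8 at 24 h and 17.4 at 36 h. Slc35d3, a sugar-nucleotide transporter, had 781, 85.6, 37.8 and 74.5. Fgf4, the growth factor of the pluripotent epiblast, had 2062, 246, 61.0 and 553. Foxd3 was lower at each time, whereas Fgf4 was lowest at 24 h and higher again at 36 h. In the interval from 0 to 12 h Fgf4 fell by 3.69 ± 0.78 (adjusted p = 0.0232), Slc35d3 fell by 3.27 ± 0.48 (adjusted p = 0.00325) and Foxd3 fell by 2.84 ± 0.36 (adjusted p = 0.00155). Foxd3 fell by another 1.80 ± 0.37 to 36 h (adjusted p = 0.00995), and the later difference of Fgf4, 0.96 ± 0.81, did not pass (adjusted p = 0.522). Chac1, a glutathione-degrading enzyme of the stress response, had 2665, 352, 322 and 639, and Pabpc2, a poly(A)-binding protein gene, had 292, 34.8, 32.0 and 37.3. Both fell from 0 to 12 h, and without cytokine they also stood at 576 and 34.3 at 12 h. The KO array at 0 h had 2304 for Chac1 but 37.0 for Pabpc2, so the fall of Pabpc2 rests on the WT 0 h array alone.

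Other epiblast factors went down later. Otx2, the homeobox factor of the primed and anterior epiblast, had 553, 207, 31.8 and 25.3 at 0, 12, 24 and 36 h. Utf1, a chromatin factor of pluripotent cells, had 6252, 4040, 2106 and 391, and Pou3f1, a POU factor of the epiblast, had 4360, 1687, 1563 and 383. By these probe sets Otx2 was 4-fold down by 24 h, and Utf1 and Pou3f1 by 36 h. The order depends on the probe set, since a second, dimmer one of Pou3f1 stood at -2.07, -3.38 and -4.63 log2 and one of Utf1 at -1.48, -2.52 and -5.92. Between 12 and 36 h Otx2 fell by 2.48 ± 0.50 (adjusted p = 0.0081), Utf1 fell by 3.49 ± 0.27 (adjusted p = 5.8e-05) and Pou3f1 fell by 2.25 ± 0.35 (adjusted p = 0.00176). The de novo methyltransferase genes differed in timing, Dnmt3a with 4360, 1783, 891 and 849, and Dnmt3b with 11747, 10156, 5753 and 4040. Dnmt3a fell over both intervals, by 1.38 ± 0.23 (adjusted p = 0.00681) and 1.17 ± 0.24 (adjusted p = 0.00846), and Dnmt3b over the later interval, by 1.35 ± 0.25 (adjusted p = 0.00448). The next brightest probe sets of Dnmt3a stood at -2.57 and -2.78 log2 at 36 h, near the -2.45 of the one used. The dimmer ones stood at -0.76 and -0.24. Of 13 kept genes of the primed epiblast list, 3 fell between 0 and 12 h (median -0.79) and 9 between 12 and 36 h (median -1.43). Fgf5, the classic marker of the primed epiblast, had 792, 699, 1082 and 218, and its later difference of -1.76 ± 0.63 did not pass (adjusted p = 0.107).

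Mael, Sycp3, Dppa2 and Dppa4 were middle falls. Dppa2 and Dppa4 are on the core pluripotency list, none of the 4 is on the germline list, and none of the 8 kept genes of that list was in a fallen class. By the test 1 of these 8 fell between 12 and 36 h. A second, dimmer probe set of Dazl, a member of the germline list, stood at -0.82, -2.27 and -2.83 log2, against -0.40 at 36 h for the one used. Mael, which acts in transposon silencing, had 580, 247, 69.1 and 17.9, and Sycp3, a part of the synaptonemal complex of meiosis, had 576, 360, 89.3 and 21.1. Dppa2 and Dppa4, a pair of chromatin-binding proteins of early development, had 2195, 1024, 449 and 147, and 4804, 2091, 709 and 393. All 4 declined from each array to the next. From 12 to 36 h Sycp3 fell by 3.37 ± 0.30 (adjusted p = 8.87e-05), Mael fell by 2.99 ± 0.38 (adjusted p = 0.000659), Dppa2 fell by 2.79 ± 0.29 (adjusted p = 0.000238) and Dppa4 fell by 2.53 ± 0.30 (adjusted p = 0.000446). Without cytokine the same 4 genes stood at 18.4, 53.8, 58.9 and 198 at 36 h.

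**Figure D3:**
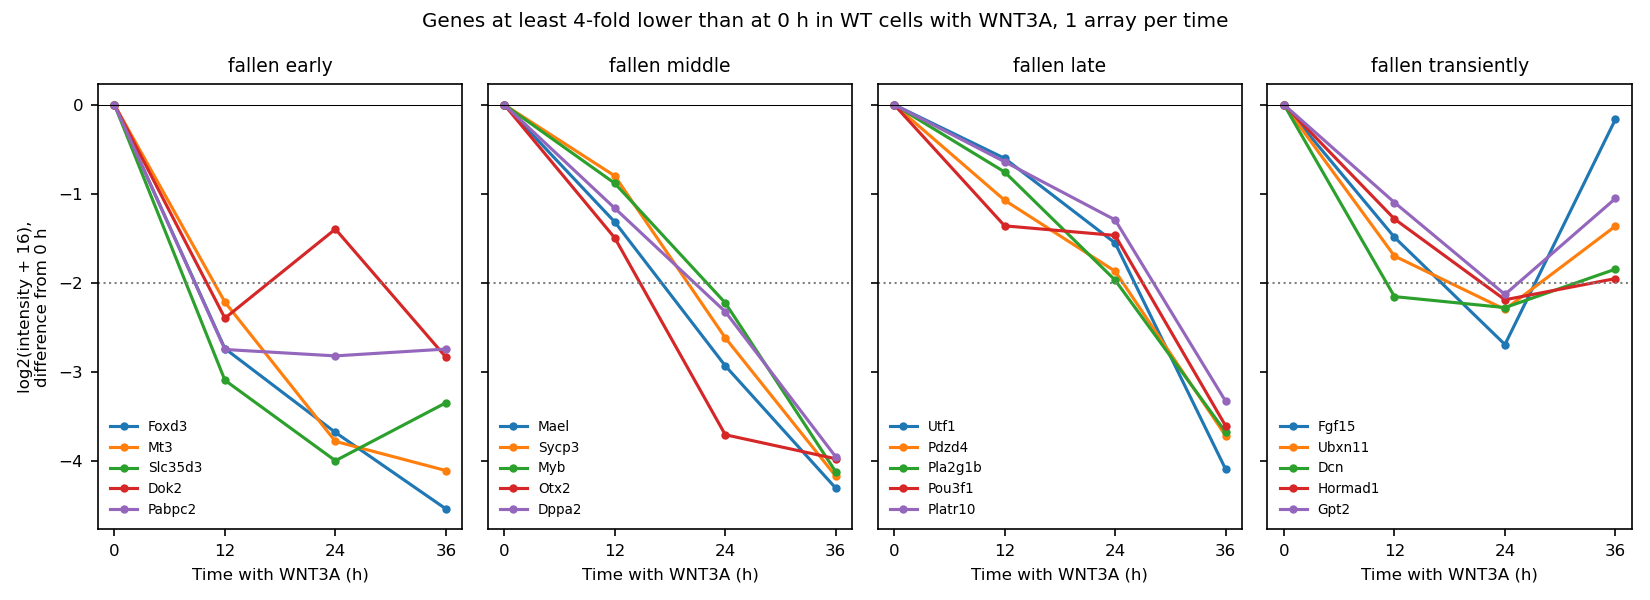
The log2 difference from 0 h (y axis, log2(intensity + 16)) against hours with WNT3A (x axis) for the 5 genes with the largest decreases in each fallen class, 1 array per point, with the 4-fold limit dotted. Foxd3 stands at -2.74 by 12 h and -4.54 by 36 h, Otx2 at -3.71 by 24 h, Utf1 at -1.55 at 24 h and -4.10 at 36 h, and Fgf15 at -2.70 at 24 h and -0.16 at 36 h.

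The central pluripotency factors stayed near their starting level through most of the course. Pou5f1, which encodes OCT4, had 8780, 9153, 9090 and 5914, and Sox2 had 1017, 1563, 1663 and 1783. Pou5f1 fell by 0.65 ± 0.13 between 12 and 36 h (adjusted p = 0.00919), and Sox2 passed neither test. Of the 13 kept genes of lateral and extraembryonic mesoderm 1 rose between 12 and 36 h, Isl1, with 38.1, 20.0, 64.4 and 184. Gata4, Gata6, Hand1 and Tal1, factors of heart, primitive endoderm and blood, stayed below 80 on all 4 arrays. Of the 8 kept neural genes 2 rose between 12 and 36 h, Sox1 and Nes, with 33.4, 29.9, 51.3 and 97.0 for Sox1, which marks the neural plate.

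Markers of other cells that the cultures could hold were few and dim. Of the extraembryonic endoderm list 5 of 9 genes were kept, and their summed intensity was 665, 595, 479 and 419 at 0, 12, 24 and 36 h, with Sox7, Afp, Ttr and Apoa1 below the filter. For trophoblast 3 of 8 genes were kept, with sums of 396, 205, 244 and 354, and for fibroblasts 5 of 8, with sums of 910, 612, 410 and 490. No kept member of the 3 lists stood 4-fold higher than at 0 h at any time. On these bulk arrays, fewer cells of a type and less RNA per cell cannot be told apart for any gene described here.

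Cells without cytokine also gained most early genes, but later. Of the 40 early risen genes 6, 21 and 36 were past 4-fold from 0 h without cytokine at 12, 24 and 36 h. Over all genes 0.0528%, 0.324% and 0.981% were. Such counts in WT cells reuse the 0 h array that sorted the classes. A gene with an unusual value on that array can therefore pass in every WT condition. At 12 h 30 genes were at least 4-fold higher with WNT3A than without cytokine (0.226% of genes) and 5 lower (0.0377%). At 24 h 51 were higher (0.385%) and 12 lower (0.0905%), and at 36 h 118 were higher (0.890%) and 19 lower (0.143%). Sp5 had 1098, 3641 and 5914 with WNT3A at 12, 24 and 36 h, against 27.5, 181 and 3541 without cytokine. Axin2 had 523, 1370 and 949, against 61.0, 274 and 996, and Foxa2 had 357, 1499 and 1520, against 30.7, 130 and 1160. For these 3 genes the gap was widest at 12 or 24 h and had nearly closed by 36 h. It had not for Hoxb1, with 7132 against 690 at 36 h, or Cdx1, with 2778 against 282. In limma 120 genes differed at 12 h (0.905%), 98 higher (0.739%) and 22 lower (0.166%), or 95 genes without the WNT3A 24 h array. The count was 52 without the WNT3A 12 h array, 38 without the no-cytokine 12 h array, 36 with WT arrays alone and 79 when the 6 KO arrays whose labels conflict were left out. At 12 h Sp5 was higher with WNT3A by 5.18 ± 0.47 (adjusted p = 0.000242), Nkx1-2 by 4.56 ± 0.32 (adjusted p = 2.28e-05), Foxa2 by 3.53 ± 0.50 (adjusted p = 0.00528) and Axin2 by 3.06 ± 0.43 (adjusted p = 0.00528). Foxd3 was lower with WNT3A by then, at -2.41 ± 0.34 (adjusted p = 0.00548), and for Hoxb1 the difference of 2.98 ± 0.68 did not pass (adjusted p = 0.0806). Of the 40 early risen genes, 25, 17 and 2 were at least 4-fold above the cells without cytokine at 12, 24 and 36 h.

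The late genes can be set against the same cells, with the reservation that both classes were sorted on the WNT3A arrays compared here, which fixes much of the timing of these counts. Of the 203 late risen genes, 1 was at least 4-fold above the cells without cytokine at 12 h, 2 at 24 h and 80 at 36 h. Over all genes 0.226%, 0.385% and 0.890% were. Tbx6 had 39.4, 40.0 and 1898 with WNT3A, against 24.4, 31.6 and 35.5 without cytokine. Wnt3a had 132, 271 and 1663, against 158, 155 and 185, and Cdx2 had 6.19, 39.7 and 484, against 9.71, 9.99 and 13.1. The cells without cytokine stayed near the 0 h level in all 3 genes.

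**Figure D4:**
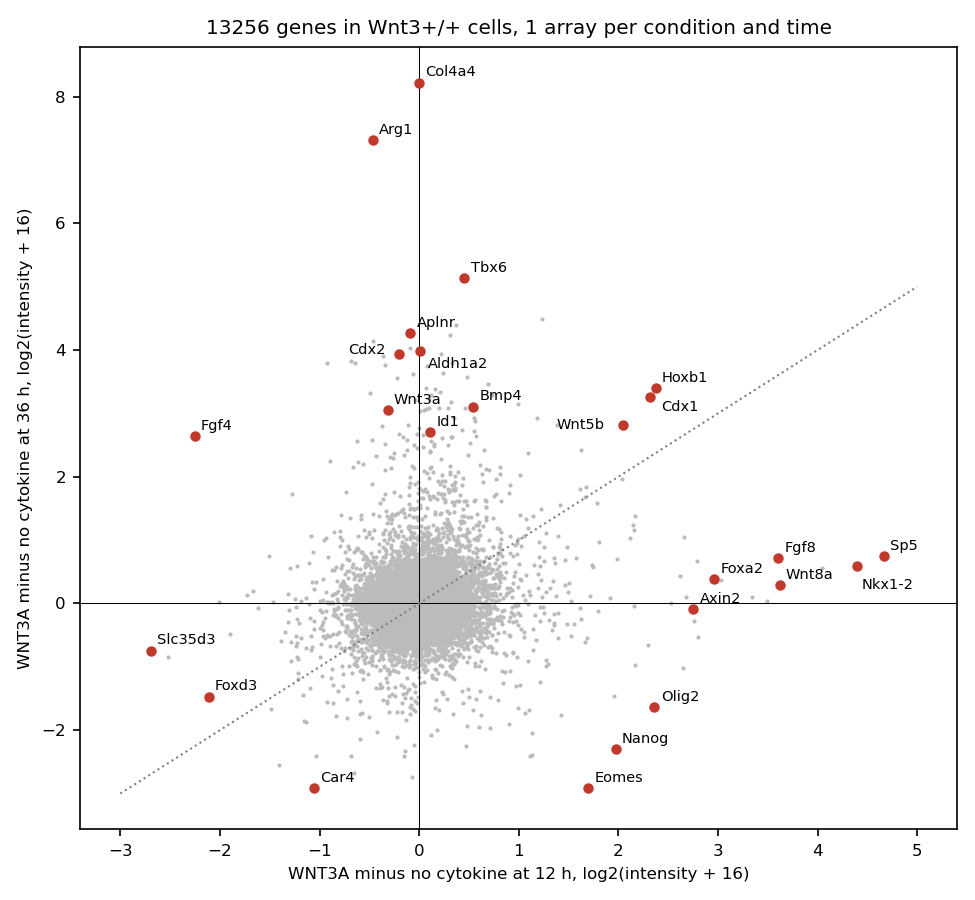
Each point is 1 of 13256 genes, with the log2 difference of WNT3A minus no cytokine at 12 h on the x axis and at 36 h on the y axis, 1 array per condition and time, and equal differences dotted. Sp5, at 4.66 and 0.75, and Axin2, at 2.75 and -0.09, lie to the right near 0 on the y axis, Tbx6 and Col4a4 lie at 5.14 and 8.22 on the y axis, and Nanog and Eomes lie below 0 at 36 h, at -2.29 and -2.92.

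Whether the change from 12 to 36 h itself differed between WNT3A and no cytokine was tested as a difference of slopes. It passed for 74 genes (0.558%), with 27 steeper upwards with WNT3A (0.204%) and 47 less so or downwards (0.355%). This count is unstable, at 128 without the WNT3A 24 h array, 114 without the BMP4 36 h array, 1 without the no-cytokine 12 h array and 0 without either the WNT3A or the no-cytokine array at 36 h. It was 11 with WT arrays alone, and 8 when the 3 arrays with the highest Gapdh ratios were left out. Without the filter on dim genes it was 12, with 1 gene on the positive side and 11 on the negative. Early genes that cells without cytokine were still gaining lay on the negative side. The difference was -3.92 ± 0.73 for Sp5 (adjusted p = 0.0415), -3.80 ± 0.49 for Nkx1-2 (adjusted p = 0.0102) and -3.33 ± 0.36 for Wnt8a (adjusted p = 0.00579). Nanog and Eomes went in opposite directions in the 2 conditions. Nanog had 3236, 1951 and 739 with WNT3A, against 776, 2369 and 3468 without cytokine, a slope difference of -4.27 ± 0.56 (adjusted p = 0.0107). Eomes had 639, 416 and 194, against 171, 495 and 1510, a difference of -4.61 ± 0.84 (adjusted p = 0.0392). On the positive side stood Col4a4 (8.22 ± 1.51, adjusted p = 0.0392), Arg1 (7.78 ± 1.36, adjusted p = 0.0298), Foxj1 (4.11 ± 0.61, adjusted p = 0.0204) and Id1 (2.59 ± 0.51, adjusted p = 0.0489). Without cytokine Col4a4 was at the floor of 1 and Arg1 at 11.2, 6.68 and 5.94. Arrays on which these genes had risen carried them through the filter. Tbx6, with a difference of 4.69 ± 1.16, did not pass (adjusted p = 0.114), nor did Wnt3a at 3.37 ± 0.66 (adjusted p = 0.0503) or Cdx2 at 4.15 ± 0.83 (adjusted p = 0.054).

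Against BMP4 in the same WT cells, the slope from 12 to 36 h differed for 1 gene, Trp53i11, a p53-induced membrane protein gene (0.00754% of genes, and 1212 genes at an unadjusted p under 0.05). It had 362, 690 and 2419 with WNT3A at 12, 24 and 36 h, against 307, 288 and 340 with BMP4, a difference of 2.76 log2. The count is unstable, at 0 with WT arrays alone or without curvature, and 0 to 16 when single arrays were left out. On simulated data this test recovered 22% of differences of 1 log2. A count of 1 gene therefore does not show that the 2 courses were alike. Single genes still stood far apart at each time. Foxa2 had 357, 1499 and 1520 with WNT3A, against 27.3, 27.1 and 39.4 with BMP4, and Id1 had 189, 350 and 2077, against 6339, 7383 and 9878. Chrd had 98.4, 695 and 1531, against 67.2, 72.0 and 70.0, while Sp5, with 1098, 3641 and 5914 against 1024, 1924 and 2385, was high in both. Hoxb1, with 133, 1361 and 7132 against 105, 149 and 3373, and Cdx2, with 6.19, 39.7 and 484 against 15.3, 15.7 and 205, were also well above 0 h with BMP4 at 36 h. Foxa2 and Chrd were high only in the WNT3A arrays of this pair, and Id1 was higher with BMP4 at each time. With BMP4, 29, 34 and 32 of the 40 early risen genes were past 4-fold from 0 h at 12, 24 and 36 h, 10, 35 and 64 of the 80 middle genes and 4, 10 and 95 of the 203 late genes, where 0.453%, 0.754% and 2.07% of all genes were.

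The same classes can be followed in the KO line, whose 6 arrays with WNT3A carry labels that disagree. Those titled BMP4 and WNT3A are named for WNT3A alone in their descriptions, and those titled WNT3A for both. Id1 had 186, 256 and 1323 on the arrays titled BMP4 and WNT3A at 12, 24 and 36 h, and 5480, 7591 and 9345 on those titled WNT3A. Foxa2 had 380, 1552 and 2385 on the arrays titled BMP4 and WNT3A, and 24.8, 32.0 and 37.5 on those titled WNT3A. In the WT cells, Id1 at 12 h was at 189 with WNT3A and 6339 with BMP4. On the KO arrays titled BMP4 and WNT3A, 35, 35 and 38 of the 40 early risen genes were past 4-fold from the KO 0 h array at the 3 times, where 0.400%, 0.845% and 2.29% of all genes were. Of the middle class 6, 55 and 80 of 80 were past it, and of the late class 0, 9 and 153 of 203. On the KO arrays titled WNT3A, 27, 29 and 31 of the early genes were past it, where 0.430%, 0.717% and 1.52% of all genes were, with 9, 37 and 63 of the middle and 5, 12 and 50 of the late genes. Without cytokine in WT cells 1, 12 and 56 of the middle and 0, 2 and 14 of the late genes were past it, where 0.0528%, 0.324% and 0.981% of all genes were. On both sets of KO arrays and in WT cells without cytokine, a larger share of early than of late genes was past the limit at each time. On the WT WNT3A arrays these shares follow from the sorting itself and are equal at 36 h. Elsewhere the sorting also favours early genes, whose 36 h median on the WT WNT3A arrays was 3.65, against 2.52 for late genes. Larger differences pass a fixed limit more often, so the shares cannot decide whether the order of the classes recurs.

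**Figure D5:**
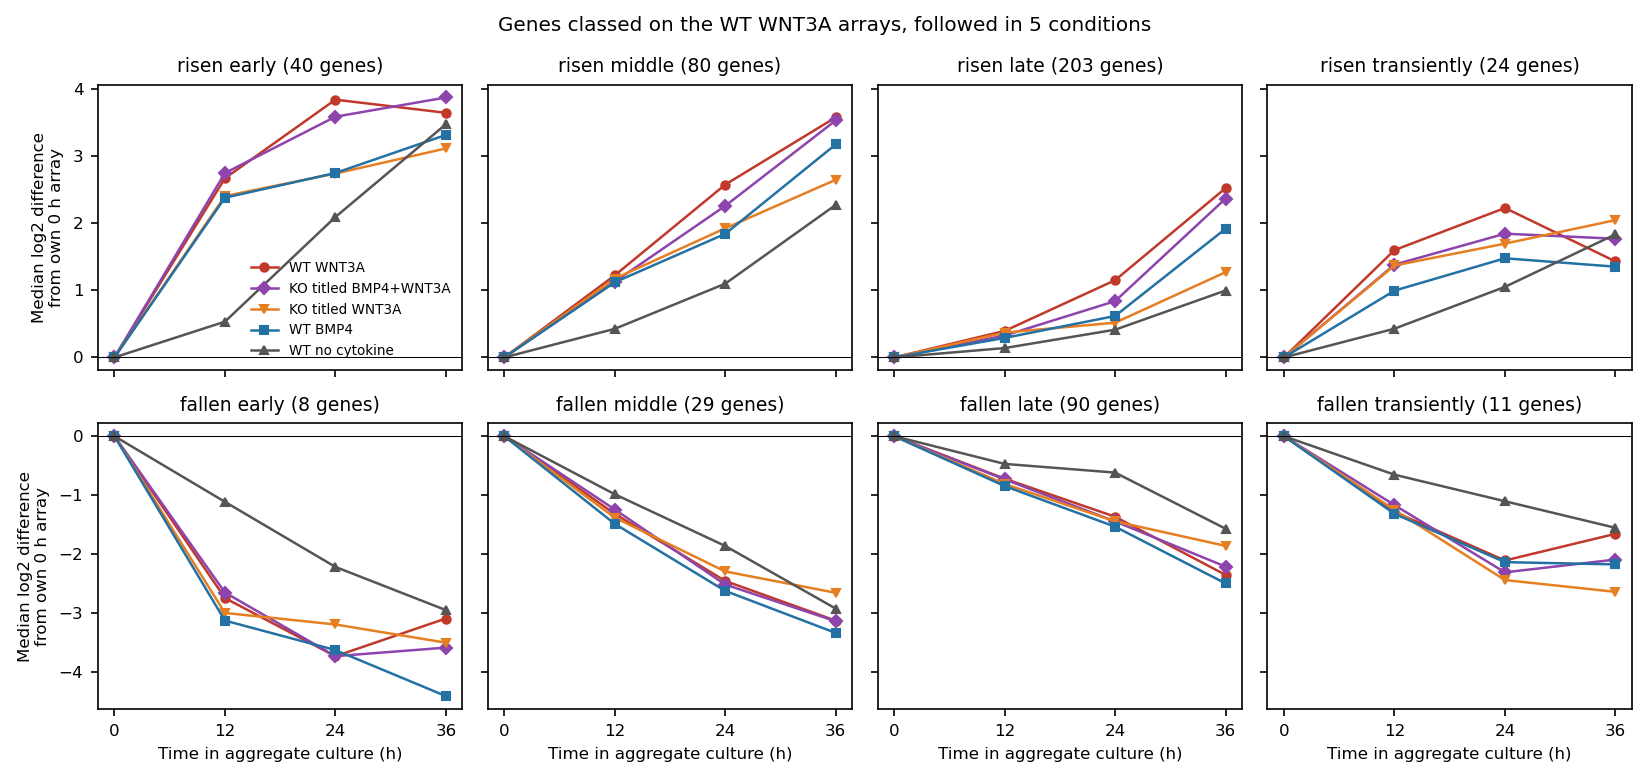
The median log2 difference from the 0 h array of the same line (y axis) against hours of aggregate culture (x axis) for the genes of each class sorted on the WT WNT3A arrays, in 5 conditions, 1 array per point. The early risen genes stand at a median of 2.67 at 12 h with WNT3A in WT cells, 2.75 on the KO arrays titled BMP4+WNT3A and 0.53 without cytokine, and the late risen genes stand at 2.52, 2.37 and 1.00 at 36 h in the same 3 conditions.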

How the data were processed

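Each of the 23 arrays measures biotin-labelled cRNA made from amplified cDNA of total RNA, per the labels' protocols. The authors deposited linear intensity values, 1 per probe set and array; they lie on a grid of 0.01 in log2 (100% of values within 1e-04) with a floor of 1 that holds 2.93% of them, and how they were computed from the scans is not stated in the labels. The number of arrays limits the precision.

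Log2(intensity + 16) was quantile normalized, since the upper quartiles of the arrays spread over 0.35 log2, above a limit of 0.2. Of 45101 probe sets 34958 name 1 gene in the platform annotation, 932 several and 9211 none, and 34754 were matched to RefSeq. T, Nanos3 and other list genes with no probe set of their own are not analysed here. Each of 18194 genes was represented by its probe set of highest mean, and 13256 were kept because they exceeded the array median of 3 or more arrays. The 22 lists hold 278 genes, 221 of them kept.

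In limma 3.58.1 under R 4.3.3 the model had a level and a linear course for each of 7 conditions, 1 common curvature and a coefficient for each 0 h array, with 6 residual degrees of freedom over 23 arrays. Groups follow the titles. The change from 12 to 36 h gives the 24 h array no weight except in the spread. The threshold was an adjusted p of 0.05 (Benjamini-Hochberg over all genes). At an unadjusted p under 0.05 the 5 tests gave 2191 (0 to 12 h), 3172 (12 to 36 h), 1207 (against no cytokine at 12 h), 1364 and 1212 genes (slope against no cytokine and BMP4). The genes, lists, classes and rules were chosen with earlier results of these data known. Genes named are the 6 risen and 5 fallen genes of largest difference per class, the 5 highest and 5 lowest per test, list members and label checks.

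On simulated data with 13256 genes, 100 of them changed by 2 log2, the 5 tests recovered 100%, 99%, 100%, 92% and 95% of these in the order above, and with 1 log2 63%, 62%, 70%, 21% and 22%. False calls were 3 of 166, 10 of 171, 15 of 185, 1 of 114 and 6 of 123. The alternatives tried were values as deposited, offsets of 1 and 64, no filter, averaging all probe sets per gene, no curvature, no variance trend, WT arrays alone, fits without the 6 KO arrays of conflicting labels, limits of 2-fold and 8-fold, classes against no cytokine, leaving out each array and, added after the data were seen, fits without the 3 arrays of highest Gapdh ratio. Figures were drawn with matplotlib 3.10.9.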

Additional observations from a re-analysis of the deposited data

Results flagged for a closer look

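The following values are differences in the 12 to 36 h change between conditions, from the limma interaction of condition and time with an adjusted p under 0.05, and each genotype and condition has 1 array per time. Between WNT3A and no cytokine 74 genes differed, or 12 without the filter, of which 1 was more positive with WNT3A. More negative with WNT3A were Eomes (-4.61), Nanog (-4.27), Olig2 (-4.00), Sp5 (-3.92), Nkx1-2 (-3.80), Rtl8c (-3.49), Tnfrsf19 (-3.46), Wnt8a (-3.33), Fst (-3.24) and Cda (-3.17). Frem2 (-3.03), Olig1 (-2.96) and Car4 (-1.86) were also on that side. For Car4, a carbonic anhydrase, the arrays at 12, 24 and 36 h read 2628, 2180 and 904 with WNT3A, against 5595, 6252 and 6383 without cytokine. Fst, which encodes the activin antagonist follistatin, had 1468, 4973 and 4705 with WNT3A, against 123, 695 and 4300 without cytokine.

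More positive with WNT3A were Col4a4 (8.22), Arg1 (7.78), Cited1 (4.27), Foxj1 (4.11), Aldh1a2 (3.98), Lpar3 (3.72), Lhx1 (3.67), Id1 (2.59), Krt7 (2.18), Trp53i11 (2.04) and Dcn (1.87). Krt7, a keratin on the trophoblast list, had 74.0, 175 and 294 with WNT3A, against 131, 96.3 and 93.7 without cytokine. Dcn, a proteoglycan on the fibroblast list, had 42.5, 37.5 and 60.5, against 160, 82.7 and 49.2, and it was lower at each later time without cytokine. Between WNT3A and BMP4 1 gene differed, Trp53i11, by 2.76, and 0 genes with WT arrays alone.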

How the results depend on the processing

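No paired analysis was possible because each group has 1 array and no replicate numbers pair arrays. Offset 1 gave 2 genes for the slope against BMP4, 62 early risen, 53 middle and 30 transiently fallen genes; offset 64 gave 22 early, 131 late and 13 transiently risen and 43 late and 3 transiently fallen genes. Without the filter the slope against no cytokine kept 12 genes, 1 higher and 11 lower. With the mean of probe sets it kept 32, with 3 against BMP4 and 53 late fallen genes. Without curvature the calls were 328 (0 to 12 h), 78 (against no cytokine at 12 h), 3 and 0 (slopes); without the variance trend the slopes gave 39 and 2. WT arrays alone gave 95, 742, 36, 11 and 0 for the 5 tests, and leaving out the 6 KO arrays gave 311 (0 to 12 h) and 79 (against no cytokine). Without the 3 arrays of highest Gapdh ratio, chosen after seeing the data, the slopes gave 8 and 9. At 2-fold the risen classes held 212, 313, 518 and 170 genes and the fallen ones 124, 170, 391 and 153; at 8-fold 13, 32, 101 and 13, and 1, 5, 23 and 2. Classed against no cytokine they held 3, 13, 102 and 49 risen and 0, 0 and 19 early, middle and late fallen genes. Leaving out single arrays gave 79 (WNT3A 12 h) to 601 genes for 0 to 12 h, 59 (WNT3A 36 h) to 1434 for 12 to 36 h, 38 (no cytokine 12 h) to 121 against no cytokine, 0 (WNT3A 36 h) to 128 (WNT3A 24 h) for the slope against no cytokine, and 0 (WNT3A 12 h) to 16 (BMP4 12 h) against BMP4. Without the WNT3A 24 h array early genes stayed at 40 and 8 and late ones came to 283 and 119, both by definition of the classes. Transient ones came to 9 and 1. Of the named genes' test values 3606 kept their call, 764 lost it and 3 changed sign: for 12 to 36 h Fst ran from -0.0302 (WNT3A 12 h left out) to 3.27, Cldn7 from -2.34 to 0.10 and Slc2a3 from -0.0667 to 1.18 (WNT3A 36 h left out for the changed sign). Against no cytokine at the same time 18 class values changed sign: Frem2 -0.27, Axin2 -0.0859, Trh -1.09, Tfcp2l1 -0.97, Tfap2c -0.12, Mixl1 -0.45, Gsc -0.96, Frzb -0.22, Zeb2 -0.15, Ndrg1 -0.84, Mt3 0.28, Pabpc2 0.0823, Fgf4 2.64, Dppa2 1.04, Dppa4 0.86, Gdf3 0.17, Amn 0.21 and Hormad1 0.0642. The cause of these shifts was not tested. With 1 array per group, the slope tests are the least secure, and dim genes such as Cdx2 at 12 h have no detection call.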

Other observations

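Slc2a3, a glucose transporter gene, had 2304 at 0 h, 5257 at 12 h, 5833 at 24 h and 7968 at 36 h with WNT3A and rose in both intervals, by 1.04 and 0.56 log2, while Ldha, a glycolytic enzyme gene, had 10885, 10735, 9542 and 10016. Bnip3, a hypoxia-inducible mitophagy gene, had 653, 224, 258 and 311 and fell by 1.56 from 0 to 12 h. Pdk1, a kinase gene that restrains pyruvate dehydrogenase, had 2034, 1734, 1370 and 452 and fell by 2.05 from 12 to 36 h, and Ndrg1, a hypoxia-inducible gene, had 42.5, 93.1, 428 and 388 and passed neither test. Of 13 kept glycolysis and hypoxia genes 1 rose and 4 fell between 0 and 12 h, and 3 rose and 1 fell between 12 and 36 h. Over all genes 2.60% rose and 1.27% fell in the first interval, and 5.64% rose and 4.50% fell in the second. Of 11 kept p53 response genes 3 rose between 0 and 12 h and 3 fell between 12 and 36 h. Trp53inp1, a p53 target, did both, with 904, 2091, 1978 and 1113.

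Among the FGF feedback genes, Il17rd rose in both intervals, with 879, 1938, 2628 and 3743, and Dusp4, a phosphatase of the MAP kinase pathway, was late, with 537, 263, 592 and 3126. Of 10 kept members 1 rose and 1 fell between 0 and 12 h, and 2 rose between 12 and 36 h. Of 8 kept germline genes 2 rose from 0 to 12 h, Tfap2c, a factor of germ cell specification, with 20.3, 249, 526 and 396, and Kit, with 223, 545, 495 and 405. Between 12 and 36 h none of the 8 rose and 1 fell. Prdm1, which encodes BLIMP1, had 37.0, 50.6, 93.1 and 70.0 and passed neither test.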
